A study of Mus musculus with 6 samples.

Results

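Microglia are the resident macrophages of the brain. In the quiet state they carry receptors for nucleotides and for fractalkine and keep MHC class II, the molecules that present peptides to CD4 T cells, very low. Interferon-gamma induces MHC class II through the transactivator Ciita, while type I interferons induce a largely separate set of antiviral genes. Near tumors and lesions microglia are known to lower their homeostatic genes and to raise lipid-handling and lysosomal genes.

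The cells described here are microglia under hashtag antibodies 5 and 6, set against microglia under hashtags 3 and 4 of the same pools. CD11b+ cells were taken from perfused and enzymatically dissociated brains of C57BL/6 mice aged 12 weeks. Per the labels, the series holds 6 groups, female and male, each without tumor (whole brains), at day 14 or at day 21 after glioma implantation (tumor-bearing hemispheres). Each of 3 pools was made from 6 hashed samples and measured by CITE-seq, which reads the transcripts of a cell together with barcoded antibodies on its surface. No label ties a hashtag to one of these groups. The sides are therefore named by hashtag number only, and hashtag 5 of one pool need not be the same group as hashtag 5 of another. The labels do not tie hashed samples to animals either, so the p-values measure the spread between these samples, which may be partly technical.

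A cell was kept with at least 500 RNA molecules (UMIs), under 10% mitochondrial UMIs, at least 10 hashtag UMIs and 80% of these from 1 hashtag. It counted as microglia with at least 3 UMIs of P2ry12, Tmem119, Siglech and Gpr34 together and at most 1 UMI of Ms4a7, Ly6c2, Plac8 and Ccr2 together. This rule found 4771 microglia, 1572 under hashtags 5-6 and 3199 under hashtags 3-4, among 22145 assigned cells and 36755 barcodes. In pool 1 the sides held 813 and 1612 cells, and in pool 2 667 and 1179. Pool 3 held only 92 and 408, with 57 cells under hashtag 5 and 35 under hashtag 6. Of the cells within the RNA and mitochondrial limits, 79.2% were assigned to a hashtag in pool 1, 87.5% in pool 2 and only 16.1% in pool 3. What this low share did to the pool 3 values was not tested. At the edge of the rule, 56 microglia under hashtags 5-6 and 46 under 3-4 had exactly 3 UMIs of the microglial genes, and 75 and 51 cells with 2 such UMIs stayed outside. Microglia made up 6.94% to 26.4% of the assigned cells of a sample under hashtags 5-6 and 28.0% to 76.1% under hashtags 3-4, which is a description, since the rule sets what counts as microglia.

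The counts of these cells were summed per pool and hashtag, giving 6 sums a side with 260755 to 2956382 UMIs under hashtags 5-6 and 866718 to 4668278 under hashtags 3-4. The median cell of a sum carried 4363 to 7268 UMIs under hashtags 5-6 and 4289 to 6792 under 3-4. Only 1 barcode among these microglia occurred in 2 pools. Markers outside the rule were those of microglia. Sparc, a matrix protein, had a mean of 2232 CPM (UMIs per 1000000 UMIs of a sum) under hashtags 5-6 and 2644 under 3-4, Olfml3 had 1008 and 1109, and Fcrls 687 and 1087. Erythrocyte markers reached at most 0.883 CPM and T cell markers at most 28.6 CPM in any of the 12 sums. Marker sums of other types were each led by 1 gene. B cell markers reached 201 to 302 CPM, with Ighm at means of 193 (5-6) and 219 (3-4) and Ms4a1 at 0. Dendritic cell markers reached 128 to 409 CPM, led by Fscn1, neutrophil markers 105 to 255, led by Csf3r, astrocyte markers 113 to 231, led by Slc1a3, and oligodendrocyte markers 102 to 153, led by Cnp. Natural killer (NK) cell markers varied more, from 4.38 to 455 CPM under hashtags 5-6 (median 138) and from 5.96 to 291 under 3-4 (median 28.7). Monocyte and macrophage markers that the rule did not use gave a median of 1193 CPM under hashtags 5-6 and 1047 under 3-4. Their ranges of 921 to 2214 and 814 to 1332 overlapped. This sum was led by Ifi27l2a, with means of 1093.5 (5-6) and 945.4 (3-4), so it says little about the other markers. Arg1 had means of 70.9 (5-6) and 9.70 (3-4), and Tgfbi 60.6 and 38.5. Of these markers, only Chil3, Mgst1 and Hp, all at low level, had lower means under hashtags 5-6. No doublet caller was run, and hashtags remove only doublets of differently marked samples.

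No gene passed the test between the sides. Among 9727 genes, edgeR's quasi-likelihood test with pool as a block called 0 (0.0%) at an adjusted p under 0.05, and the smallest adjusted p was 0.131, shared by 24 genes. At an unadjusted p under 0.05 there were 924 genes (9.5%), of which 522 (5.37%) were higher and 402 (4.13%) lower under hashtags 5-6. The other count test, DESeq2, called 14 genes, among them P2ry12 and Gpr34, which the cells were selected on. The calls also included F11r, Il15ra, Fam102b, Cstb, Cd300lf, Cox5a, Cox6a1, Cx3cr1 and Itgb5, which are described below with their edgeR values. Of the 14 genes, 11 were among the 24 with the smallest adjusted p in edgeR. Without the filter on low counts edgeR called 242 of 17539 genes. That fit gave every gene the spread of the trend, so the SE of Cd74 was 0.105 in place of 1.19. The median 95% interval reached 0.31 to either side on the log2 scale, and 0.20 for the 2914 genes with at least 50 CPM. In counts simulated from these sums, 84% of genes changed by 1 on the log2 scale were called and 99% of those changed by 2. The changed genes were picked at random and each gene was drawn independently. These shares therefore do not hold for genes of wide spread such as Cd74. The same fit of hashtags 3-4 against 1-2, which shares the hashtag 3-4 sums, called 2605 of 10073 genes (25.9%).

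MHC class II differed widely between samples of the same side. Cd74, the invariant chain that guards the class II groove, fell into separate ranges of level. It was at 351 CPM in pool 2 hashtag 3, 327 in pool 3 hashtag 3 and 472 in pool 3 hashtag 4. In the other 9 sums it lay between 6320 CPM (pool 1 hashtag 5) and 16961 CPM (pool 1 hashtag 3). Microglia under hashtags 1-2 were at 187 to 264 CPM, so 3 of the 6 sums under hashtags 3-4 stood near that level, while all 6 sums under hashtags 5-6 stood in the high range. The alpha chain gene H2-Aa split the same samples, with 76.7, 87.1 and 107 CPM in the low sums and 1194 to 3486 in the other 9. H2-Ab1 and H2-Eb1, which encode beta chains of class II molecules, were named after their values were seen. H2-Ab1 lay at 112 to 129 CPM in the 3 low sums and 1614 to 4281 elsewhere, and H2-Eb1 at 69.1 to 79.9 and 1312 to 3605.

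**Figure D1:**
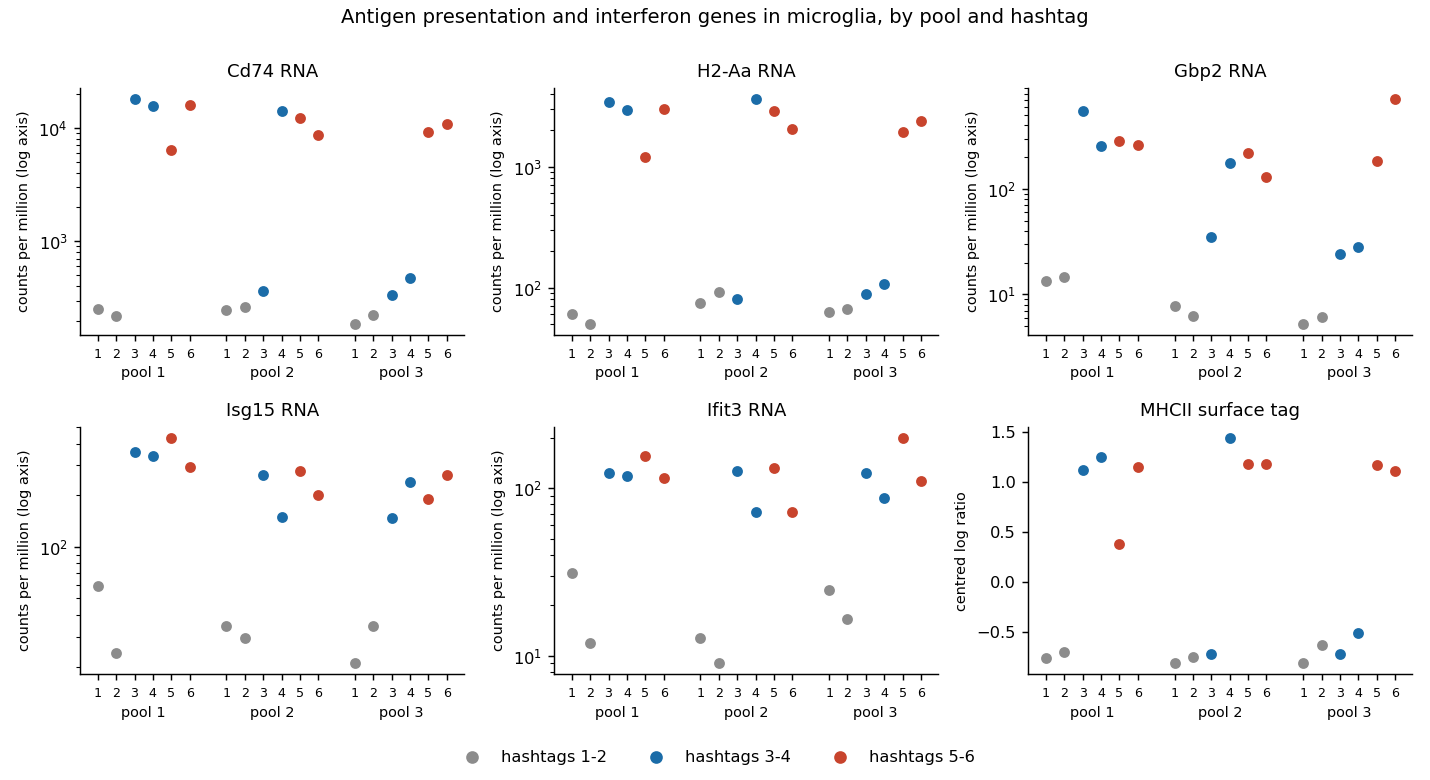
Levels in microglia of each pool and hashtag for 5 genes (CPM scaled over 18 sums, log axis) and the MHCII surface tag (mean centred log ratio), 1 point per hashed sample. Cd74, H2-Aa and the MHCII tag are low in pool 2 hashtag 3 and pool 3 hashtags 3 and 4, where Isg15 and Ifit3 are as high as in the other samples under hashtags 3 to 6.

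Because the low sums all lay under hashtags 3-4, the fitted difference of Cd74 was large but unsure, at 1.29 on the log2 scale (SE 1.19, 95% interval -1.44 to 4.02, adjusted p = 0.821). Within pools it was -0.69 in pool 1, 2.21 in pool 2 and 4.65 in pool 3, and without pool 3 it was -0.00087. H2-Aa gave 1.15 (SE 1.15, adjusted p = 0.843), with -0.72, 2.20 and 4.45 in the pools. H2-DMa, a class II peptide exchange factor, ranged from 236 to 268 CPM in the 3 low sums and from 502 to 1065 in the others. Of the 9 class II genes tested, 0 had an unadjusted p under 0.05 and 0 were higher or lower in all 3 pools, and their median of 0.40 combined pool medians of -0.72, 0.48 and 2.99.

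The split held in the typical cell and on the cell surface. After each cell was thinned to 1500 UMIs, the median microglial cell carried 1 UMI of the class II list in each of the 3 low samples, and the 90th percentile was 3 to 4 UMIs. In the other 9 samples the median was 12 to 41 UMIs and the 90th percentile 38.7 to 82.9. Thinning left out 60 shallower cells under hashtags 3-4 and 31 under 5-6. The MHCII antibody tag gave centred log ratios of -0.72, -0.73 and -0.51 in pool 2 hashtag 3 and pool 3 hashtags 3 and 4, and 0.38 to 1.44 in the other 9 sums. Its values under hashtags 1-2 were -0.82 to -0.64. RNA and protein therefore separated the same 3 samples, 1 in pool 2 and 2 in pool 3.

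**Figure D2:**
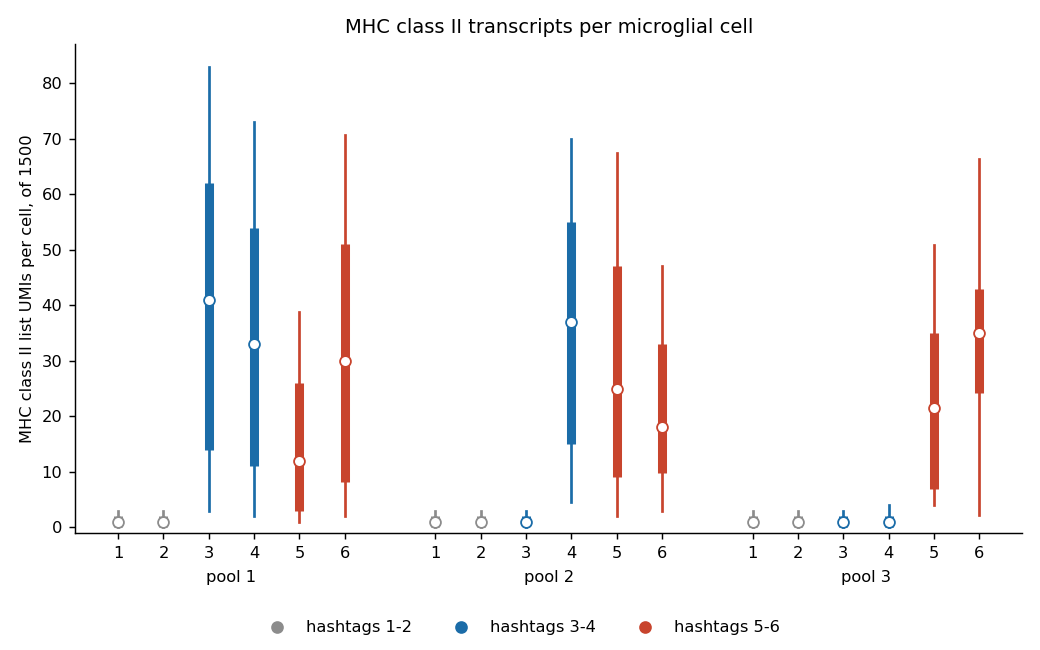
UMIs of the 9 MHC class II genes per microglial cell after thinning to 1500 UMIs, by pool and hashtag; circles are medians, thick lines the middle 50% of cells and thin lines the 10th to 90th percentile. The median cell has 1 UMI in pool 2 hashtag 3 and in pool 3 hashtags 3 and 4, and 12 to 41 UMIs in the other samples under hashtags 3 to 6.

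Ciita, named after its values were seen, had 1 UMI, 1 UMI and 0 UMIs in the 3 low sums. The 0 was among 866718 UMIs and allows up to 3.48 CPM, counting error only. The other 9 sums held 3 to 346 Ciita UMIs, or 8.66 to 88.6 CPM. Infiltrating cells of the same samples, defined by at most 1 UMI of the microglial genes and at least 3 of the excluded genes, did not share the gap. Their Cd74, as CPM without TMM scaling, was 10052 in pool 2 hashtag 3, 15650 in pool 3 hashtag 3 and 13761 in pool 3 hashtag 4. These were the lowest of 12 values, but the other 9 ran only from 16182 to 22711. The 3 lowest came from samples with 691, 24 and 109 infiltrating cells, in the order given. Free RNA can add UMIs to any droplet, and its part in these levels was not tested. Without TMM scaling, Cd74 of microglia under hashtags 1-2 was at 218 and 261 CPM in pool 1, beside samples of that pool at 6196 to 16574. It was at 255 and 279 CPM under hashtags 1-2 in pool 2, and at 212 and 250 in pool 3. The 3 low sums were at 360, 341 and 486 CPM on that scale. NK cell markers of the microglial sums were 27.5, 5.96 and 89.3 CPM in the low class II samples and 4.38 to 455 CPM in the others, and Ifng had at most 27 UMIs in any microglial sum. Their part in the split was not tested.

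Promoters of 2 class II genes and 2 type I interferon targets are shown because, of these 2 sets, only class II was low in some samples. Both sets were high in the other samples under hashtags 3 to 6. Capitals mark the Y box CTGATTGG of class II genes or the interferon-stimulated response element (GAAA, any 2 bases, GAAA), searched on both strands in the 250 bases before each start; the 200 bases before the start given in the RefSeq promoter table are printed (build GRCm38.p6). For Ifit3 that start lies inside the annotated gene (chr19:34583119-34588982), which begins further upstream.
H2-Aa: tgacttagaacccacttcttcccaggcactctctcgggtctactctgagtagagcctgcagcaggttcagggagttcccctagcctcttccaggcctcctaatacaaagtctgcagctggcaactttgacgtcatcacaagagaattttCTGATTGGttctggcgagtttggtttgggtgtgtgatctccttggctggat
H2-Eb1: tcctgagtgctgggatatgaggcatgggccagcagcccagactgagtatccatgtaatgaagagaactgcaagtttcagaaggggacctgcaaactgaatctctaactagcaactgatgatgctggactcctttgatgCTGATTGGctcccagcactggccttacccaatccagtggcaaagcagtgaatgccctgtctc
Isg15: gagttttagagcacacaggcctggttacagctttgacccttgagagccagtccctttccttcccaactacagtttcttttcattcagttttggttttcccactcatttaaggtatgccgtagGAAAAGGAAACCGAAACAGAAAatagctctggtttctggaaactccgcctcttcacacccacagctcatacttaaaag
Ifit3: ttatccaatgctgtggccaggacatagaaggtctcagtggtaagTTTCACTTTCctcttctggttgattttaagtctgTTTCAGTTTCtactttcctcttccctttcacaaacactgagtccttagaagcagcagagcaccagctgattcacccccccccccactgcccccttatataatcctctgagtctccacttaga
The stretches lie at chr17:34287824-34288023 (minus strand), chr17:34305667-34305866 (plus), chr4:156200819-156201018 (minus) and chr19:34583329-34583528 (plus). In Isg15 the capitals join 3 overlapping matches. The Y box occurred in 3 of 7 class II genes with a promoter in the table, in 0 of 28 interferon response genes and in 3.83% of all 32851 promoters. The response element occurred in 0 of 7, 13 of 28 and 2.98% of these. H2-Ab1 had no entry. A match describes these letters and is not a measured binding site.

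The type I interferon response differed little between the sides and was high in every sum under hashtags 3 to 6. Isg15, a ubiquitin-like antiviral protein, had 189 to 429 CPM under hashtags 5-6 (median 266) and 143 to 336 under 3-4 (median 245), with overlapping ranges, against 21.0 to 59.5 under hashtags 1-2. Its difference was 0.19 (SE 0.19, 95% interval -0.23 to 0.60, adjusted p = 0.840). In the 3 samples with low class II it was at 253, 145 and 236 CPM. Ifit3, which binds viral RNA, was at 122, 120 and 86.7 CPM there and at 69.2 to 198 CPM elsewhere, with a difference of 0.23 (SE 0.23). Of 35 interferon response genes, 31 had a positive and 4 a negative difference, and 15 were higher in all 3 pools (16.6% of all genes were). An unadjusted p under 0.05 with a positive sign occurred for 5 (5.37% of all genes). The median was 0.23, beside 0.00 over all genes, but it was 0.0024 with hashtags at 95% purity and -0.0089 without hashtag 5. Those with the smallest p were Ifi204, a DNA sensor (0.44, SE 0.13, adjusted p = 0.291), and Stat2, a signal transducer of the type I receptor (0.33, SE 0.11, adjusted p = 0.361). Against hashtags 1-2, all 35 passed in hashtags 3-4, with a median of 2.82.

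The genes named here among those that interferon-gamma induces were also lowest in the 3 samples with low class II. Gbp2, a guanylate-binding protein, had 33.6, 23.6 and 28.1 CPM in the samples with low class II and 127 to 713 CPM in the other 9. Its difference was 0.99 (SE 0.79, 95% interval -0.82 to 2.80, adjusted p = 0.772), with -0.41, 1.11 and 3.77 in the pools. Over 20 such GTPases and regulators the median was 0.47 with pool medians of -0.20, 0.83 and 2.05, and 0 had an unadjusted p under 0.05. Gbp3 (0.56, SE 0.31) and Gbp7 (0.64, SE 0.36) had the smallest p, with adjusted values of 0.633 and 0.644.

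MHC class I genes were present in all samples. H2-K1, a class I heavy chain, was at 1750, 2217 and 2120 CPM in the samples with low class II and at 3160 to 4375 in the others, against 498 to 906 under hashtags 1-2. Its difference was 0.38 (SE 0.23, adjusted p = 0.656). B2m, the light chain, ranged from 3680 to 5284 CPM under hashtags 5-6 (median 4760) and from 3213 to 4677 under 3-4 (median 3604). The ranges overlapped, and the difference was 0.31 (SE 0.10, adjusted p = 0.345). Psme1, a proteasome activator subunit, gave 0.29 (SE 0.10, adjusted p = 0.362). All 15 class I and peptide loading genes had a positive difference (median 0.29). Of these, 4 had an unadjusted p under 0.05 (5.37% of all genes were higher at that level). Only 3 were higher in all 3 pools, near the share over all genes (16.6%), since the median was -0.04 in pool 1.

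Homeostatic genes had mostly negative differences, none of which passed the test. Of 30, 29 had a negative difference, 17 had an unadjusted p under 0.05 (4.13% of all genes were lower at that level), and 18 were lower in all 3 pools (17.8% of all genes). The median was -0.22, with -0.06 in pool 1, -0.31 in pool 2 and -0.27 in pool 3. The cells were selected on 4 genes of the same kind, so these counts are not independent of the rule. The selected genes themselves had a summed level of 2892 to 3567 CPM under hashtags 5-6 and 3353 to 5320 under 3-4.

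Slc2a5, a fructose transporter of microglia, ranged from 115 to 163 CPM under hashtags 5-6 (median 122) and from 115 to 209 under 3-4 (median 182). The ranges overlapped through pool 1, where hashtag 4 was as low as hashtags 5 and 6. Its difference was -0.39 (SE 0.09, adjusted p = 0.131). Cst3, the secreted protease inhibitor cystatin C, gave -0.34 (SE 0.08, adjusted p = 0.192). P2ry13, a nucleotide receptor, had 201 to 321 CPM (median 208) against 199 to 350 (median 315), and a difference of -0.36 (SE 0.10, adjusted p = 0.269). Pool 3 hashtag 6 was the exception at 321 CPM, beside 201 to 224 in the other sums of its side. Cx3cr1, the fractalkine receptor, gave -0.23 (SE 0.08, adjusted p = 0.361). Sall1, a transcription factor of microglial identity, gave -0.15 (SE 0.09). Csf1r, the survival receptor of macrophages, gave -0.16 (95% interval -0.33 to 0.01).

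**Figure D3:**
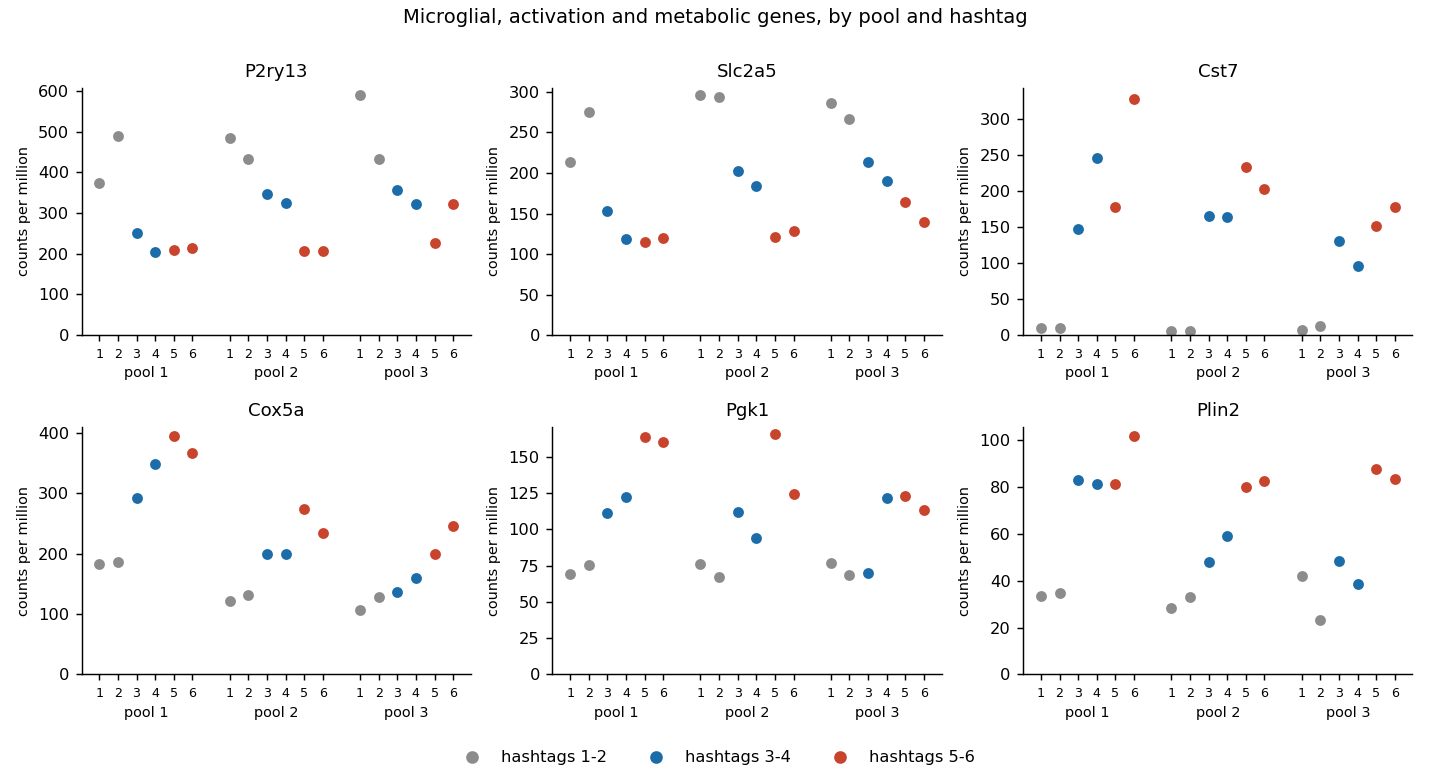
CPM scaled over 18 sums for 6 genes in microglia of each pool and hashtag, 1 point per hashed sample, axes from 0. P2ry13 and Slc2a5 are lower, and Cst7, Cox5a, Pgk1 and Plin2 higher, under hashtags 5-6 than 3-4 on average, and for each gene the 2 sides overlap over the 3 pools.

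Genes of activated and disease-associated microglia had mostly positive differences, again with none past the test. Of 32 tested, 24 had a positive difference and 11 an unadjusted p under 0.05 with that sign (5.37% of all genes). In all 3 pools 13 were higher (16.6% of all genes). Cst7, cystatin F of endosomes, ranged from 151 to 317 CPM under hashtags 5-6 (median 187) and from 95.7 to 239 under 3-4 (median 148), against 6.15 to 12.1 under hashtags 1-2. The sides overlapped, and the difference was 0.45 (SE 0.17, adjusted p = 0.413), with 0.38, 0.43 and 0.56 in the pools. Lgals3, the lectin galectin-3, gave 1.06 (SE 0.36, adjusted p = 0.401). It was at 184 to 265 CPM in 5 of the sums under hashtags 5-6 but at 33.9 in pool 3 hashtag 6, and at 30.0 to 155 under hashtags 3-4. Itgax, the integrin chain CD11c, gave 0.46 (SE 0.13, adjusted p = 0.269), and Lgals1, a related lectin at low level, gave 1.64 (SE 0.44, adjusted p = 0.328). Infiltrating macrophages also express these lectins. Summed and single markers of those cells, Arg1 among them, are given above, and the part of such cells in these values was not tested.

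Fixed genes of lipid handling and lesions within this list are given next. Apoe, the lipid carrier, was highest in pool 2 hashtag 3 (8172 CPM) and pool 3 hashtag 3 (6530), and ranged from 1184 to 3376 in the other 10 sums. Its difference was -0.66 (SE 0.51, 95% interval -1.83 to 0.51), with 0.41, -0.47 and -1.64 in the pools. Spp1, osteopontin, ranged from 11.3 to 949 CPM under hashtags 5-6 and from 11.8 to 1133 under 3-4, with a difference of 0.64 (SE 0.81). Lpl, lipoprotein lipase, gave 0.84 (SE 0.58), with 0.95, 0.44 and 0.43 in the pools, and with 201 CPM in pool 3 hashtag 5 and 3.77 in pool 3 hashtag 6. Trem2, a lipid-sensing receptor, differed by -0.18 (95% interval -0.38 to 0.01).

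Mitochondrial respiration genes had small and even positive differences, none past the test. All 32 nuclear genes of oxidative phosphorylation had a positive difference between 0.09 and 0.40, 22 had an unadjusted p under 0.05 (5.37% of all genes) and 30 were higher in all 3 pools (16.6%). The median was 0.25, with 0.21, 0.25 and 0.29 in the pools, while in infiltrating cells of the same samples it was 0.03. When this contrast between cell classes was tested with edgeR, 6 of the 32 had an unadjusted p under 0.05 (6.04% of all genes). After adjustment 0 passed. Cox5a, a subunit of cytochrome oxidase, ranged from 198 to 394 CPM under hashtags 5-6 (median 257) and from 134 to 339 under 3-4 (median 191). In each pool both sums under hashtags 5-6 were above both under 3-4. Its difference was 0.40 (SE 0.09, adjusted p = 0.131), and that of Cox6a1, another subunit, 0.37 (SE 0.08, adjusted p = 0.131). All 13 mitochondrially encoded genes also had a positive difference (median 0.12), including mt-Co1 (0.25, SE 0.09) and mt-Co2 (0.21, SE 0.08).

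RNA composition and depth per cell were slightly higher on the same side, and their part in these values was not tested. The median mitochondrial share was 1.63% to 3.34% under hashtags 5-6 and 1.53% to 3.17% under 3-4, and the median ribosomal protein share 9.96% to 13.7% and 9.43% to 11.7%. With cells thinned to 1500 UMIs the median of the oxidative phosphorylation list was 0.17, without the deepest cells 0.15 and under a stricter microglia rule 0.13.

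Genes of glycolysis and hypoxia had a median of 0.21. Of 17, 6 were higher and 1 lower at an unadjusted p under 0.05 (5.37% and 4.13% of all genes). Pgk1, a glycolytic kinase, ranged from 113 to 164 CPM under hashtags 5-6 (median 139) and from 68.6 to 120 under 3-4 (median 106), and only pool 3 hashtag 6 lay within the range of the other side. Its difference was 0.49 (SE 0.11, adjusted p = 0.131), and that of Pkm, pyruvate kinase, 0.40 (SE 0.10, adjusted p = 0.192). Among 25 lysosome and lipid genes (median 0.18) 6 were higher at that level (5.37% of all genes). Plin2, a coat protein of lipid droplets, gave 0.51 (SE 0.11, adjusted p = 0.131). It had 78.8 to 98.5 CPM under hashtags 5-6 and 38.3 to 79.0 under 3-4, with 0.18, 0.63 and 0.99 in the pools.

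**Figure D4:**
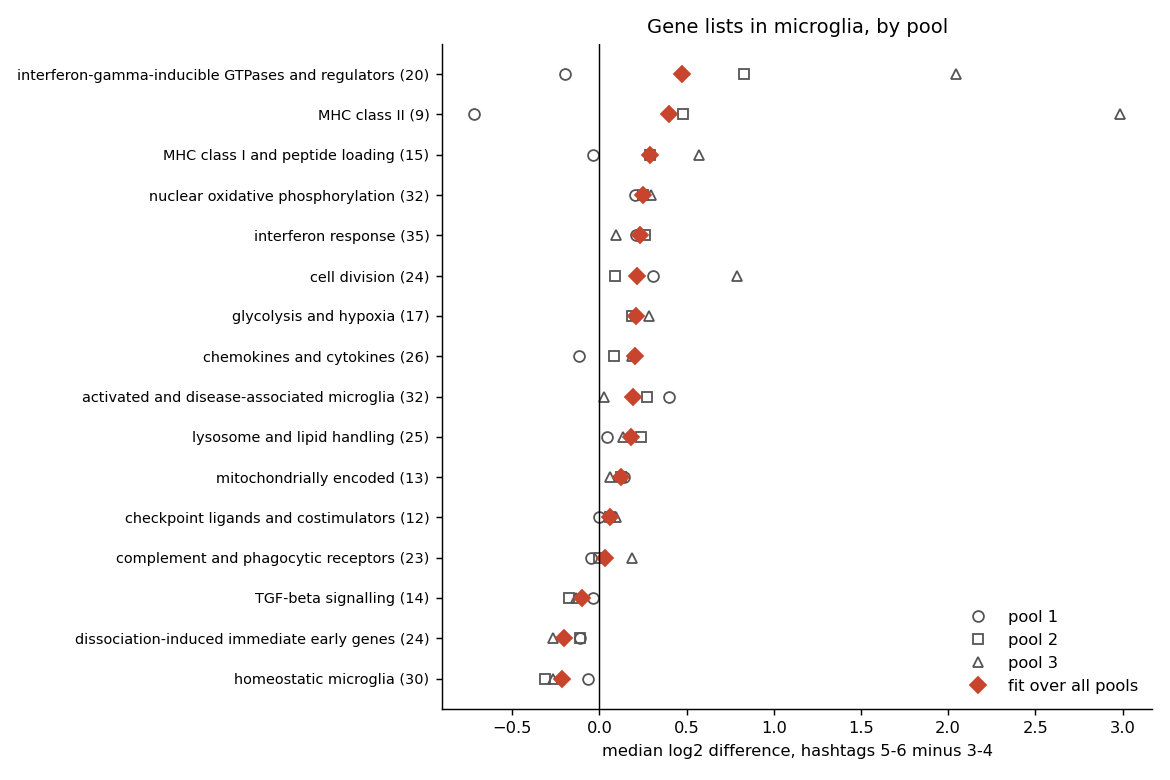
Median log2 difference (hashtags 5-6 minus 3-4) of each gene list, with the number of genes tested in brackets; open symbols are within-pool medians and diamonds the fit over all pools. Oxidative phosphorylation stays between 0.21 and 0.29 in the 3 pools, and MHC class II runs from -0.72 in pool 1 to 2.99 in pool 3.

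Of 26 chemokines and cytokines, 2 were higher and 1 lower at an unadjusted p under 0.05, near the share over all genes (5.37% higher, 4.13% lower). The macrophage inflammatory chemokines Ccl3 (0.12, 95% interval -0.28 to 0.53) and Ccl4 (0.13, 95% interval -0.25 to 0.52) did not pass. Cxcl10, a T cell attractant, was lowest in pool 3 hashtag 3 at 37.9 CPM and highest in pool 3 hashtag 6 at 1079, and gave 0.82 (SE 0.61). Within pools it was -0.48, 0.59 and 3.22, and with 1 pool left out it ranged from 0.022 (without pool 3) to 1.57. Ccl12, a monocyte attractant, gave 0.40 (SE 0.39), Ccl8 1.97 (SE 0.60, adjusted p = 0.361) at 0 to 36.5 CPM, and Cxcl16 0.34 (SE 0.12, adjusted p = 0.362). The cytokines Il1b and Tnf gave -0.30 (SE 0.21) and 0.31 (SE 0.24).

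For cell division, 22 of 24 genes had a positive difference and 15 were higher in all 3 pools (16.6% of all genes were), but 1 had an unadjusted p under 0.05 (5.37% of all genes were higher at that level). That was H2afz, a histone variant (0.29, SE 0.10, adjusted p = 0.345). Hmgb2, a chromatin protein, gave 0.22 (SE 0.11). Mki67, present only in cycling cells, was at 0 to 52.6 CPM over the 12 sums, and its interval of -1.34 to 1.43 left the difference undetermined.

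The remaining lists had small medians. Immediate early genes, which enzymatic dissociation is known to induce, were lower in all 3 pools for 15 of 24 (17.8% of all genes were), with 7 lower at an unadjusted p under 0.05 (4.13% of all genes). Their median of -0.20 was -0.094 with thinned cells, -0.098 under the stricter rule, -0.11 without the deepest cells or without hashtag 4, and -0.095 without hashtag 5. The smallest p-values were those of Jun (-0.34, SE 0.11, adjusted p = 0.329) and Ier5 (-0.27, SE 0.09, adjusted p = 0.334). TGF-beta signalling, which maintains microglial identity, had a median of -0.10 and 3 of 14 genes lower at that level, including the pathway repressor Skil (-0.29, SE 0.08, adjusted p = 0.272) and the integrin chain Itgb5 (-0.21, SE 0.08, adjusted p = 0.362). Of 23 complement and phagocytosis genes 2 were higher and 1 lower at that level (5.37% and 4.13% of all genes). C3, the central component, gave 1.16 (SE 0.35, adjusted p = 0.353) at 3.57 to 47.9 CPM. Among 12 checkpoint ligands and costimulators 0 passed even unadjusted. Cd274, which encodes PD-L1, gave 0.57 (SE 0.33, adjusted p = 0.648), and Lgals9, a checkpoint lectin, 0.16 (SE 0.08, adjusted p = 0.530).

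Genes named only after their values were seen included the smallest p-values. Il15ra, the alpha chain of the interleukin-15 receptor, had the smallest, with 14.9 to 49.0 CPM under hashtags 5-6 (median 31.1) and 12.9 to 18.2 under 3-4 (median 14.9). The gap was in pools 2 and 3, with 1.12 and 1.16 on the log2 scale, while pool 1 gave 0.20. The fitted difference was 0.85 (SE 0.17, adjusted p = 0.131). Cstb, an intracellular protease inhibitor, gave 0.56 (SE 0.11), Cd300lf, an inhibitory lipid receptor, 0.83 (SE 0.16), and Fam102b -0.62 (SE 0.12), all with an adjusted p of 0.131.

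The 6 values of one side lay above all 6 of the other for 19 genes (0.195% of those tested). Among these, and also chosen after their values were seen, the fatty acid synthase gene Fasn was at 10.8 to 17.0 CPM under hashtags 5-6 and 4.83 to 10.7 under 3-4. Ms4a6c was at 107 to 170 against 80.6 to 107, nearly touching, and Lmna, a nuclear lamin, at 16.6 to 34.9 against 5.71 to 14.5. F11r, a junctional adhesion molecule, was lower at 326 to 365 against 395 to 475, and Acvr1, a receptor of bone morphogenetic proteins, at 17.6 to 23.3 against 24.0 to 32.2. Their adjusted p-values were 0.131 to 0.133. Axl, a receptor for dying cells, overlapped between the sides and gave 0.65 (SE 0.21, adjusted p = 0.361).

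Surface proteins were tested by an exact two-sided permutation of sides within pools, which has 216 arrangements and cannot go below p = 0.00926. Of 10 tags, PD-L1 was higher and CD74 lower under hashtags 5-6 after adjustment over the tags. PD-L1, a ligand that inhibits T cells, gave centred log ratios of -0.63 to -0.25 (median -0.35) under hashtags 5-6 and -0.73 to -0.41 (median -0.56) under 3-4. It was higher in all 3 pools, by 0.11, 0.17 and 0.20, a mean of 0.16 (exact permutation, adjusted p = 0.0463). CD74 gave -2.20 to -1.76 against -1.94 to -1.65, a mean difference of -0.25 (exact permutation, adjusted p = 0.0463), with -0.06, -0.26 and -0.43 in the pools. Both unadjusted p-values are the smallest the design allows, and the adjusted value was under 0.05 only because both tags reached that smallest p. On raw tag counts only PD-L1 reached it, with an adjusted p of 0.0926 (exact permutation), so both calls were lost. They were also lost when side labels were permuted over all 12 sums, as given in the closing section.

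The CD74 tag and its RNA did not order the samples alike. Pool 3 hashtag 3 had the lowest Cd74 RNA of the 12 sums and the highest tag value, and hashtags 1-2, with the least RNA, had tag values of -1.84 to -1.30. Within pool 1, hashtag 3 had the highest RNA (16961 CPM) and the highest tag value of hashtags 3 to 6 (-1.69), and hashtag 5 the lowest of both (6320 CPM and -1.77). This tag was sparse, with 4 to 10 UMIs in the median cell of a sum, and a centred log ratio is relative to all 10 tags, MHCII included. MHCII itself differed by 0.72 (exact permutation, adjusted p = 0.389), with -0.42, 0.82 and 1.75 in the pools. Tmem119 differed by -0.40 (exact permutation, adjusted p = 0.0617), but its transcript is one that the cells were selected on.

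Tags of general myeloid markers lay close on both sides. CD11b differed by -0.10, CD45 by -0.03, CD49d by 0.04, CD52 by -0.08, Gr-1 by -0.03 and Ly6C by -0.03, and their adjusted p-values were 0.389 to 0.787 (exact permutation). Their transcripts gave Itgam -0.05 (95% interval -0.21 to 0.12), Ptprc -0.07 (-0.24 to 0.10), Itga4 0.29 (-1.19 to 1.78) and Cd52 0.37 (0.08 to 0.65, adjusted p = 0.375).

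**Figure D5:**
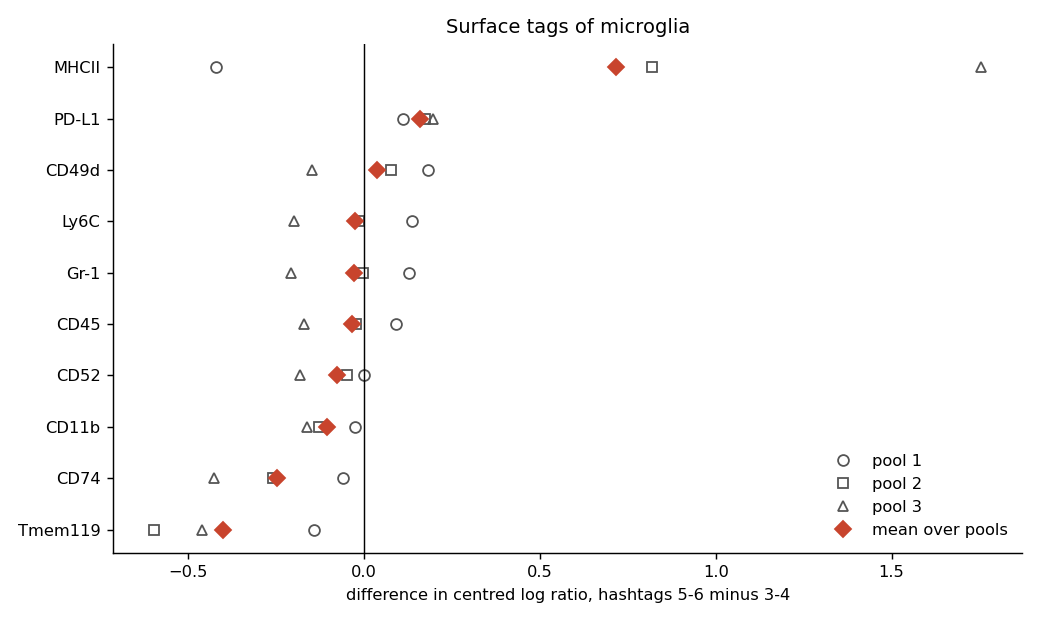
Difference of the mean centred log ratio (hashtags 5-6 minus 3-4) for 10 surface tags of microglia; open symbols are pools and diamonds their mean. PD-L1 lies between 0.11 and 0.20 in the 3 pools, and MHCII between -0.42 and 1.75.

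Whether the difference belonged to microglia was tested against the infiltrating cells of the same samples. The interaction of cell class and side called 0 of 10575 genes (0.0%) with edgeR, the smallest adjusted p was 0.516, and 639 genes (6.04%) had an unadjusted p under 0.05. The infiltrating cells alone also gave 0 of 10117 genes (0.0%) between the sides. For the interferon response, 18 of 35 genes had an unadjusted interaction p under 0.05, and the median difference was 0.23 in microglia and -0.45 in infiltrating cells. Isg15 differed by 0.19 in microglia and by -0.63 (SE 0.41) in infiltrating cells, each fitted alone, and the joint fit gave an interaction of 0.65 (SE 0.25, adjusted p = 0.746). For Cd74 the infiltrating cells gave 0.07 (SE 0.15) and the interaction 1.91 (SE 1.11, adjusted p = 0.869).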

How the data were processed

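RNA, surface tags and hashtags were read from the deposited matrices, which hold raw UMI counts per feature and barcode. Build mm10, bcl2fastq 2.20.0.422, Seurat 3 and Cell Ranger 3.0.1 and 4.0.0 appear in the submitters' processing notes. Per the file headers, pool 1 was made with 3.1.0 and the other pools with 4.0.0. Aligner settings are not given in the sources used here. Genes were joined by Ensembl identifier (30406 in all pools). Microglial counts were summed per pool and hashtag, where 20 cells or more were present. The sums were tested with edgeR 4.0.16 (robust quasi-likelihood fit, TMM, filterByExpr) with the pool as a block. Benjamini-Hochberg adjustment covered every gene tested, at 0.05, and every adjusted p of a gene comes from it unless DESeq2 1.42.0 is named. Tag values are means over cells of the log of count + 1, minus its mean over the 10 shared tags. Sums of hashtags 1-2 were scaled with the other 12. Marker totals, Ciita and infiltrating-cell levels are not TMM-scaled.

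The pool is a block because every pool held all hashtags. Deviations from the side means correlated by 0.39 on average within a pool (lowest -0.20) and by -0.26 between pools. The 2 sums of a pool and side differed beyond the sampling noise of UMIs (chi-square per degree of freedom 2.69 to 22.0). Differences between single cells can also raise this value, so it cannot show that the sums are independent. Counting each sum as a sample was a choice. The members and gene lists were chosen with earlier results of these data known. The genes named were 31 fixed ones and the 2 of smallest p in each list, since none passed, apart from a few that are not reported here. Others are marked as named after their values were seen. Alternatives covered scaling, test, low-count filter, block, unit of replication, depth per cell, hashtag purity, microglia rule, deepest cells and left-out pools or hashtags. Comparisons of sex, tumor and day were not made.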

Additional observations from a re-analysis of the deposited data

Results flagged for a closer look

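In 158 groups of 6 sums (a named gene or tag on 1 side), 11 had 1 sum far from the other 5; chance flags about 1 in 20 groups. Under hashtags 5-6, pool 3 hashtag 6, the sum with the fewest cells (35), stood apart for P2ry13 (320.6 CPM, the highest), Lgals3 (33.9 CPM, the lowest), Itga4 (26.4 CPM) and Gbp7 (294.2 CPM). Pool 1 hashtag 6 stood apart for Ccl4 (8225 CPM) and Cd52 (2077 CPM), pool 2 hashtag 5 for Itgax (62.9 CPM), pool 3 hashtag 5 for Lmna (34.9 CPM) and pool 1 hashtag 5 for the MHCII tag (centred log ratio 0.381). Under hashtags 3-4, pool 2 hashtag 3 stood apart for Lpl (96.2 CPM) and pool 3 hashtag 3 for C3 (3.57 CPM). The split of MHC class II into 3 low and 3 high sums under hashtags 3-4 is not of this kind, since no single sum stands apart.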

How the results depend on the processing

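The count of 0 genes between the sides stayed 0 with other scaling, without the replicate block (419 genes at an unadjusted p under 0.05, against 924) and with hashtags at 95% purity. It was 242 without the low-count filter (176 higher, 66 lower), 18 when sums were pooled per pool and side (18 higher), 14 with DESeq2 (8 higher, 6 lower), 2 with thinned cells (1 higher, 1 lower), 1 under the stricter microglia rule (1 higher) and 3 without the deepest cells (3 higher). Without 1 pool it ranged from 0 to 11 (0 to 7 higher, 0 to 4 lower), and without hashtag 4, 5 or 6 it was 6 (5 higher, 1 lower), 2 (2 higher) and 4 (4 higher). The unfiltered fit gave all genes the trend's spread; the cause of the other changes was not tested.

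Signs of log2 differences turned as follows. Without the deepest cells: Ccl3 -0.10, Ccl4 -0.034, Mki67 -0.24, and the medians of glycolysis -0.00063, checkpoint -0.029 and mitochondrially encoded genes -0.0073. At 95% purity: Ccl12 -0.35, Isg15 -0.29, Ifit3 -0.022, Mki67 -0.18, complement -0.0093. Under the stricter rule: Mki67 -0.22, cell division -0.0073. Pooled per side: Mki67 -0.0071. With DESeq2: Ciita 0.90, against -0.24. Without hashtag 3: Ccl3 -0.074, Ccl4 -0.089, Mki67 -0.53, Itga4 -0.35, checkpoint -0.019. Without hashtag 4: Ciita 0.47. Without hashtag 5: Ifit3 -0.19, Mki67 -0.083, interferon response -0.0089. Without hashtag 6: Ccl3 -0.021, Ccl4 -0.012, complement -0.018.

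With 1 pool left out, the differences ranged from -0.00087 to 2.58 for Cd74, -0.072 to 2.35 for H2-Aa, -0.14 to 2.35 for H2-Ab1, -0.067 to 2.59 for H2-Eb1, -0.053 to 0.81 for H2-DMa, -0.63 to 0.63 for Ciita, -0.16 to 0.73 for Ccl12 and -0.069 to 0.39 for Mki67. List medians ranged from -0.072 to 0.81 for class II and -0.019 to 0.072 for complement. The lowest of these came without pool 3, and the highest without pool 1, except for Mki67 (without pool 2).

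Among tags, raw log2 counts turned CD11b (0.094), CD45 (0.20), CD52 (0.13), Gr-1 (0.21) and Ly6C (0.21), and CD49d was -0.037 at 95% purity and -0.0031 under the stricter rule. CD74 lost its call on raw counts (-0.11), without the replicate block (-0.25) and at 95% purity (-0.30), as did PD-L1 (0.48, 0.16 and 0.17). On raw counts PD-L1 still had the smallest p the design allows, alone among the tags. With 1 pool left out, CD74 ranged from -0.34 to -0.16, PD-L1 from 0.14 to 0.18, CD45 from -0.096 to 0.035, CD49d from -0.035 to 0.13, Gr-1 from -0.10 to 0.063 and Ly6C from -0.11 to 0.061. With 2 pools the exact test cannot reach the threshold. The interaction called 0 genes in every alternative run. Sums of few cells, above all in pool 3, limit the precision.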
